A study of Mus musculus with 768 samples.

Results

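The mouse genes of the cyclin-dependent kinase inhibitors were examined in single cells from cochlear organoids. They were the 7 genes Cdkn1a, Cdkn1b, Cdkn1c, Cdkn2a, Cdkn2b, Cdkn2c and Cdkn2d, taken by symbol from the 52636 genes that both deposited count tables list, and all 7 were found. The organoids were grown from flow-enriched cells of postnatal day 2 mice, taken from the greater epithelial ridge (GER), which lies on the inner side of the hair cells. All mice carried Sox2-GFP, a green reporter for the progenitor and supporting cell gene Sox2, and Fgfr3-CreERT2 with Ai14-tdTomato, in which the promoter of the supporting cell gene Fgfr3 drives a tamoxifen-dependent Cre that can switch on a red reporter. Every culture was grown in the same DMEM/F-12 medium with N-2, B-27, ampicillin, EGF, FGF2, IGF1, the GSK3 inhibitor CHIR99021, the histone deacetylase inhibitor valproic acid, 2-phospho-L-ascorbic acid and the TGFβ receptor inhibitor 616452, so that culture time is the difference between groups that the labels give. Cells were picked by hand from trypsin-dissociated organoids after 1, 3 or 7 days and made into SmartSeq2 libraries, a full-length cDNA method that marks neither strand nor molecule. The labels number 3 replicate cultures on Day 1, 3 on Day 3 and 5 on Day 7. They do not say that replicates came from separate litters or that a number links cultures of different days, so p-values measure the spread between these samples, which may be technical.

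Cyclin-dependent kinase inhibitors are small proteins that bind the kinases driving the cell cycle, or their cyclin complexes, and hold a cell in G1. The Cip/Kip proteins p21 (Cdkn1a), p27 (Cdkn1b) and p57 (Cdkn1c) bind cyclin-kinase complexes, and the INK4 proteins p16 (Cdkn2a), p15 (Cdkn2b), p18 (Cdkn2c) and p19 (Cdkn2d) bind Cdk4 and Cdk6 alone. In the developing cochlea p27 is known as the inhibitor that accompanies the exit of sensory progenitors from the cell cycle and stays in supporting cells, while p19Ink4d and p21 are known for keeping hair cells postmitotic. p21 is also a classic target of p53, p15 of TGFβ signalling, and p57 is encoded by an imprinted gene. Much of their control is by protein turnover, which RNA does not show.

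Quality limits kept 92.6% of the deposited cells: 53, 86 and 43 cells in cultures 1 to 3 of Day 1, 85, 70 and 73 in those of Day 3, and 39, 37, 72, 78 and 75 in cultures 1 to 5 of Day 7. The median was 703264, 786776 and 876145 reads on genes per cell on Days 1, 3 and 7. Levels are given as CPM, the reads of a gene per 1000000 summed reads of a culture after TMM scaling. Shares of cells with a read were taken after each cell had been thinned at random to 200000 reads, which 97.7% of these cells reached. A read of the epithelial gene Epcam was found in 99.7% of cells and of the GER gene Tecta in 99.4%. Other epithelial and GER markers were in fewer cells, down to 58.2% for Sox2 and 7.74% for Fabp7. Hair cell markers were each in 0.844% to 4.36% of cells. Immune markers ranged from 0.422% for the leukocyte gene Ptprc to 15.2% for Cd68. Mesenchyme markers ranged from 0.844% to 18.003%, highest for Twist1, and glial markers from 0.563% to 89.3%, highest for Sox10. The endothelial genes Pecam1 and Kdr and all 3 melanocyte genes were at 0, while the endothelial gene Cdh5 was in 1.97%. The summed level of 6 GER markers lay between 9697 and 13557 CPM in the Day 1 cultures, 4264 and 7649 on Day 3 and 2201 and 4977 on Day 7, and that of 4 neuronal markers between 43.8 and 74.8, 24.2 and 29.6, and 7.22 and 25.3 CPM. That of 6 supporting cell markers lay between 265.7 and 344.1, 139.7 and 221.8, and 82.99 and 104.6 CPM, and that of 5 epithelial markers between 3110 and 4852, 2911 and 4762, and 1557 and 2633 CPM. That of 4 immune markers lay between 4.09 and 9.58, 2.04 and 3.19, and 0.363 and 1.92 CPM, and that of 4 glial markers between 53.8 and 72.4, 43.7 and 62.6, and 77.9 and 93.5 CPM. These marker levels are CPM without TMM scaling. The part of their shifts in the day comparisons was not tested. Day 7 culture 5 stood apart, with reads of both Mki67 and Top2a in 17.3% of its cells against 35.1% to 69.6% in the other Day 7 cultures, a median of 5681 genes per cell and 6.76% of reads on mitochondrial genes. The cultures are split over 2 files: file 1 holds culture 1 of Day 1, culture 1 of Day 3 and all Day 7 cultures but culture 5, and file 2 holds the other 5.

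Between Day 1 and Day 7 the inhibitors moved in opposite directions. Cdkn2c rose 18.4-fold in mean CPM, Cdkn1c fell by a factor of 4.39 and Cdkn2b by a factor of 17.3 (7.79 without Day 1 culture 2). A gene was called changed at an adjusted p under 0.05 in edgeR's quasi-likelihood test of summed counts, with Benjamini-Hochberg adjustment over all genes tested. On this rule 3 of the 6 members tested were called for Day 7 against Day 1 (1 rose, 2 fell), against 7.11% of all 17466 genes. For Day 3 against Day 1 none was called, against 0.0115% of all genes, and for Day 7 against Day 3 none, against 0.968%. DESeq2 called 1 and 2 members in those last comparisons, and at an unadjusted p under 0.05 edgeR passed 1617 and 2066 genes. Cdkn2a had too few reads to be tested.

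**Figure D1:**
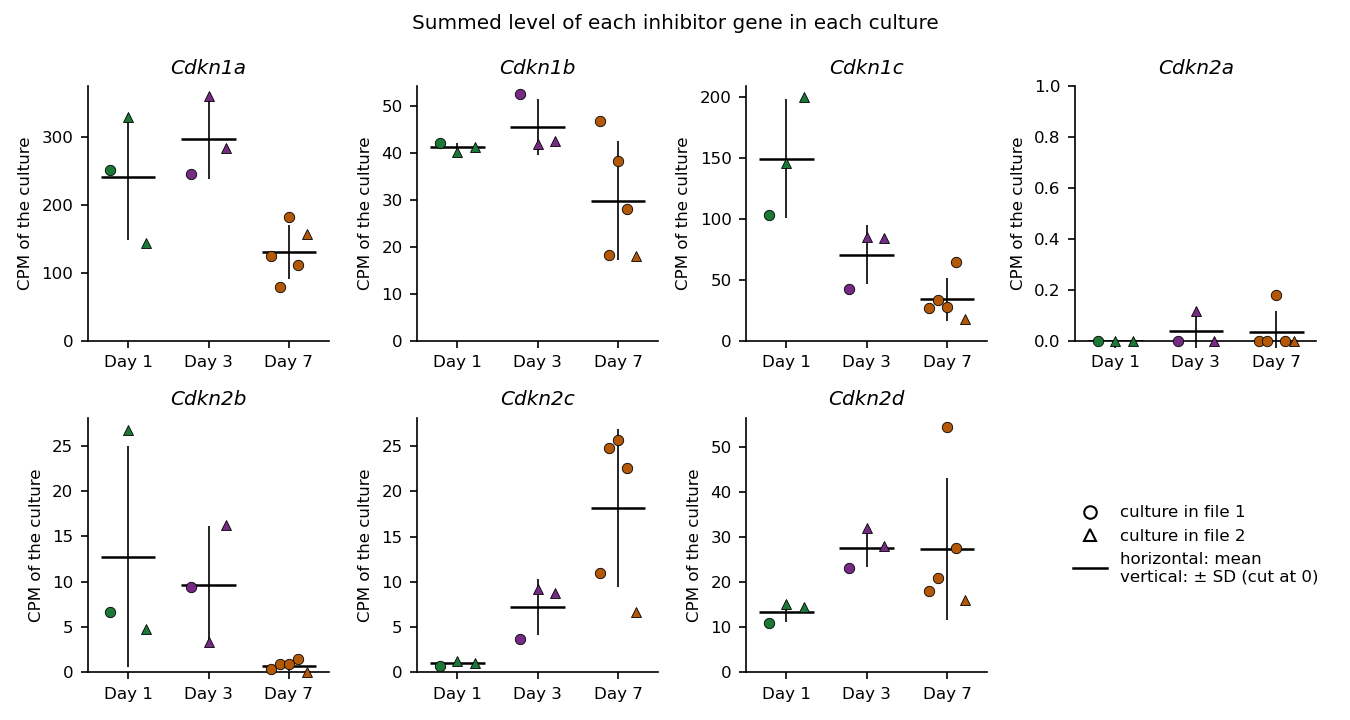
Level of each of the 7 inhibitor genes (vertical axis, CPM, linear) in each culture on Days 1, 3 and 7; circles are cultures in file 1 and triangles those in file 2, with the mean and ± SD as lines. Cdkn2c rises and Cdkn1c falls with no overlap between Day 1 and Day 7, Cdkn2b is near 0 in every Day 7 culture, and Cdkn2a stays below 0.2 CPM throughout.

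Cdkn1a (p21) was the inhibitor with the most reads. Per kilobase of exon its mean level was 67.9 CPM on Day 1 (SD 26.2), 83.5 on Day 3 and 36.9 on Day 7. For Cdkn1c it was 73.2 (SD 23.8), 34.7 and 16.7, higher on Day 1 by less than the SD of the cultures. Summed per culture, Cdkn1a stood at 250.7, 329.3 and 143.8 CPM on Day 1, at 245.02, 360.995 and 284.1 on Day 3, and at 124.2, 79.6, 181.9, 111.4 and 158.001 on Day 7. All Day 7 cultures were below all Day 3 cultures, while Day 1 culture 3 fell within the Day 7 range. The fitted log2 change was -1.18 (SE 0.29) for Day 7 against Day 3 (edgeR adjusted p = 0.0858) and -0.88 (SE 0.29) for Day 7 against Day 1 (edgeR adjusted p = 0.0851), neither past the threshold. The first was past it with cells thinned to equal depth (edgeR adjusted p = 0.0390) and with limma on the mean CPM per cell (adjusted p = 0.0496), and both were past it with DESeq2 (adjusted p = 0.00437 and 0.0164).

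The share of cells with a Cdkn1a read was lowest on Day 1, when its summed level was not. A read was found in 70.6% ± 7.13 of Day 1 cells (SD, n = 3 cultures), 86.4% ± 4.96 of Day 3 cells (n = 3) and 85.8% ± 4.90 of Day 7 cells (n = 5). Without thinning the means were 74.8%, 88.4% and 89.6%. On Day 1 the reads sat in few cells: 4 cells held 50% or more of them, and 1 cell of culture 2 held 42.4% of that culture's Cdkn1a reads. On Days 3 and 7 it took 26 and 30 cells. The median count in cells with a read, at 200000 reads per cell, was 15 on Day 1, 34 on Day 3 and 16 on Day 7.

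Cdkn1b (p27) was the steadiest member in level on Days 1 and 3. Its CPM was 42.1, 40.3 and 41.3 on Day 1 and 52.6, 41.9 and 42.5 on Day 3. The Day 7 cultures spread from 18.04 to 46.8, with 46.8, 18.3, 38.3, 28.04 and 18.04 CPM in cultures 1 to 5. The change for Day 7 against Day 1 was -0.46 (SE 0.30, edgeR adjusted p = 0.386), within the spread of the Day 7 cultures. A read was found in 70.9% ± 3.55, 73.9% ± 10.3 and 64.5% ± 15.3 of cells on Days 1, 3 and 7.

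Cdkn1c (p57) fell. It stood at 102.8, 145.6 and 199.6 CPM on Day 1, at 42.4, 85.3 and 84.4 on Day 3 and at 26.7, 33.8, 27.6, 64.2 and 18.01 on Day 7. Every Day 1 culture was above every later culture, and the Day 3 and Day 7 ranges met only through Day 7 culture 4, which was above Day 3 culture 1. Against Day 1 the log2 change was -1.08 (SE 0.43, edgeR adjusted p = 0.478) on Day 3, not called, and -2.13 (SE 0.37, edgeR adjusted p = 0.00707) on Day 7, called. The Day 7 call held on leaving out each of the 11 cultures in turn. It was lost in file 1 alone (-1.48, edgeR adjusted p = 0.266, 1 Day 1 culture) and kept in file 2 alone (-3.26, edgeR adjusted p = 0.0202, 1 Day 7 culture). With cells split by reads of the proliferation genes Mki67 and Top2a, the change was -2.60 (edgeR adjusted p = 0.0802) in cells with neither gene and -1.25 (edgeR adjusted p = 0.103) in cells with both, not called in either. A read was found in 79.3% ± 6.58, 75.2% ± 9.95 and 65.97% ± 14.3 of cells, and the median count in cells with a read went from 15 to 10 and 8. An antisense gene, Gm44732, overlaps Cdkn1c, and these libraries cannot tell the strands apart.

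The 2 neighbours on chromosome 4, Cdkn2a and Cdkn2b, had the lowest mean levels per kilobase of exon on Day 7, at 0.0308 and 0.532 CPM. Cdkn2a encodes both p16Ink4a and, in another reading frame, p19Arf, which gene counts do not separate. It had no read in any Day 1 cell, which allows a share of up to 1.65% of cells with a read (not of cells that express it), 6 reads in 1 cell of Day 3 culture 2 and 10 reads in 1 cell of Day 7 culture 3. Both of those cells had reads of Mki67 and Top2a. No fold is given, and no direction can be read from 16 reads in 2 cells.

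Cdkn2b (p15) varied between cultures on Days 1 and 3 and was at most 1.49 CPM on Day 7. Its CPM was 6.71, 26.8 and 4.81 on Day 1, 9.39, 3.40 and 16.3 on Day 3 and 0.403, 0.924, 0.885, 1.49 and 0 on Day 7. All Day 7 cultures were below all earlier ones. The log2 change for Day 7 against Day 1 was -4.11 (SE 1.03, edgeR adjusted p = 0.0319), called, and for Day 7 against Day 3 -3.71 (SE 1.02, edgeR adjusted p = 0.127), not called. Reads were in 35 cells of Day 1 (19.2%), 36 of Day 3 (15.8%) and 12 of Day 7 (3.99%). Few cells carried most of them, with 4, 4 and 3 cells holding 50% or more of the reads of a day. In Day 7 culture 5 none of 75 cells had a read, which allows a share of up to 4% of cells with a read. The call against Day 1 did not hold when culture 1 or 2 of Day 1 was left out (edgeR adjusted p = 0.061 and 0.158), nor when culture 1, 2 or 3 of Day 7 was (edgeR adjusted p from 0.0529 to 0.0601). It was also lost with the file as a covariate (edgeR adjusted p = 0.0772), in file 1 alone (-2.89, edgeR adjusted p = 0.253) and in file 2 alone (edgeR adjusted p = 0.0789), where the lone Day 7 culture had no read and the fitted fold has no bound. In cells with reads of neither Mki67 nor Top2a the change was -3.86 (edgeR adjusted p = 0.309), not called, while 59 of 15007 genes were. In cells with both it was -0.01, from 0.826 ± 1.43 CPM (SD, n = 3 cultures) to 0.824 ± 0.881 (n = 5). That Day 1 value rests on 17 reads in 1 cell of culture 3, with 0 reads in cultures 1 and 2. It cannot show whether the level changed in this class.

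Cdkn2c (p18) rose from Day 1 to Day 7. It stood at 0.726, 1.22 and 1.02 CPM on Day 1, at 3.67, 9.24 and 8.80 on Day 3 and at 10.999, 24.8, 25.7, 22.6 and 6.65 on Day 7. All Day 3 and Day 7 cultures were above all Day 1 cultures, and Day 7 culture 5 lay within the Day 3 range. The log2 change from Day 1 was 2.86 (SE 0.58, edgeR adjusted p = 0.127) on Day 3, not called, and 4.19 (SE 0.59, edgeR adjusted p = 0.00266) on Day 7, called. The second call held on leaving out each culture in turn, with an edgeR adjusted p of 0.00157 without Day 7 culture 5. In file 1 alone the value was 4.81 (edgeR adjusted p = 0.129) and in file 2 alone 2.57 (edgeR adjusted p = 0.147), both in the same direction and not called. Cells with a read were 10 on Day 1 (5.49%), 41 on Day 3 (17.98%) and 35.2% of those on Day 7. At equal depth the shares were 5.00% ± 1.04, 18.01% ± 6.61 and 33.5% ± 12.9, and the median count in such cells was 3, 7 and 9.

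Cdkn2d (p19Ink4d) was higher on Days 3 and 7 than on Day 1 without passing the threshold. Its CPM was 10.8, 15.1 and 14.5 on Day 1, 23.1, 31.9 and 27.9 on Day 3 and 18.1, 20.9, 54.3, 27.6 and 16.02 on Day 7. No later culture overlapped Day 1, and Day 7 culture 3 stood highest. The log2 change from Day 1 was 1.04 (SE 0.42, edgeR adjusted p = 0.488) on Day 3 and 1.02 (SE 0.39, edgeR adjusted p = 0.128) on Day 7. The cultures of 2 days did not overlap for 3 members between Days 1 and 3 (Cdkn1c, Cdkn2c, Cdkn2d), for 4 between Days 1 and 7 (those and Cdkn2b) and for 2 between Days 3 and 7 (Cdkn1a, Cdkn2b). That was also so for 18%, 17.8% and 8.13% of all genes in the same order.

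**Figure D2:**
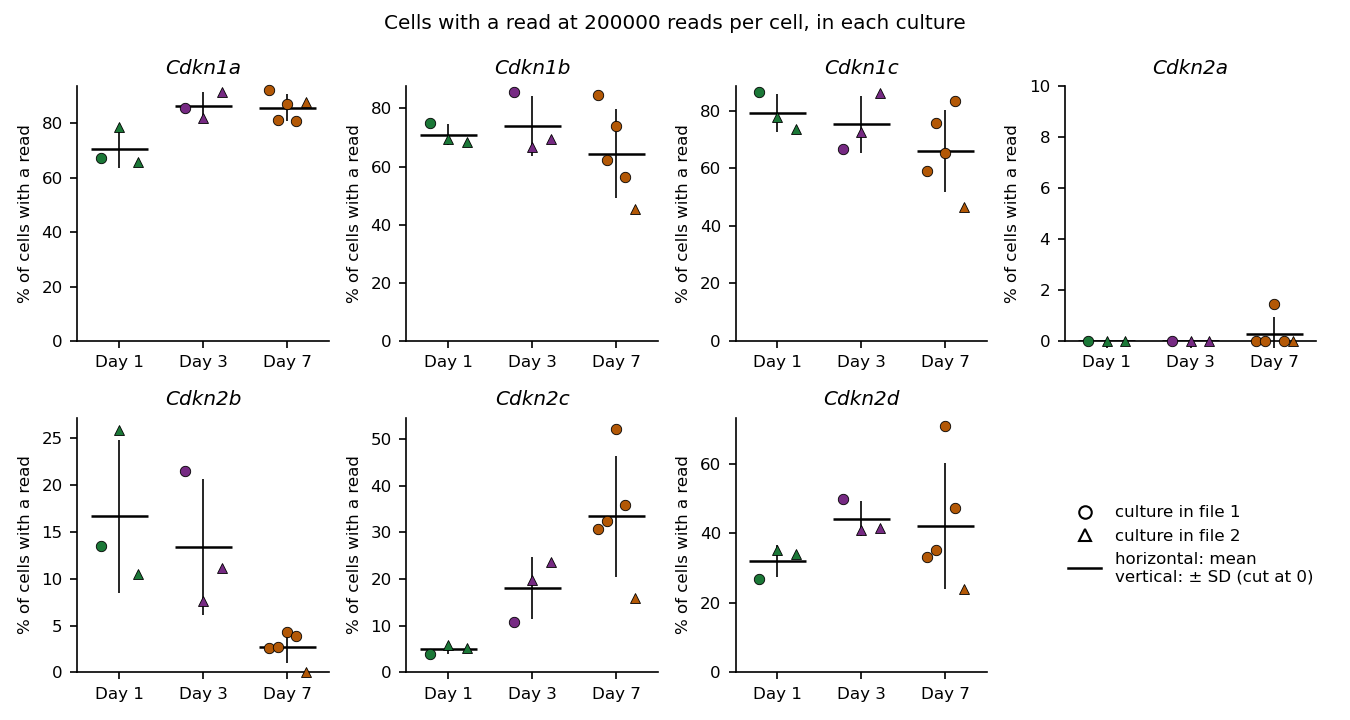
Share of cells with at least 1 read of each inhibitor gene at 200000 reads per cell (vertical axis, %), per culture on Days 1, 3 and 7; circles are cultures in file 1 and triangles those in file 2, with the mean and ± SD as lines. Cdkn2c goes from 5.00% of Day 1 cells to 33.5% of Day 7 cells, Cdkn2b from 16.6% to 2.69%, and Cdkn1a is the most often found on Days 3 and 7.

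At equal depth nearly every cell held a read of at least 1 inhibitor, with none in 2 cells of Day 1, 4 of Day 3 and 3 of Day 7. The mean number of members read per cell was 2.79, 3.12 and 2.94. Across the 11 cultures, log2 CPM of Cdkn2c and Cdkn2d went together (Pearson r = 0.76), as did Cdkn1c and Cdkn2b (r = 0.79), while Cdkn1c and Cdkn2c went apart (r = -0.67). These cultures share their day, library preparation and depth, so the values are a description. The genes most like each member over the same 11 cultures, among genes of at least 20 CPM, were Bub3 (r = 0.98), Hmgb3 (r = 0.97) and Aldh1a3 (r = 0.96) for Cdkn2c, and Hist2h3c2 (r = 0.95), Ppih (r = 0.94) and Kif15 (r = 0.94) for Cdkn2d. Bub3 is a spindle checkpoint protein and Kif15 a mitotic kinesin. For Cdkn1c they were Ctsc (r = 0.94), Mlxip (r = 0.92) and Sh3glb2 (r = 0.91), for Cdkn1b Efhd2 (r = 0.96), Ccdc186 (r = 0.88) and Creb5 (r = 0.86), for Cdkn2b Gpc4 (r = 0.95), Cited2 (r = 0.91) and Suds3 (r = 0.90), and for Cdkn1a Cltb (r = 0.92), Pabpn1 (r = 0.89) and Tnfrsf12a (r = 0.89).

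The inhibitors were then set against Mki67, which encodes the proliferation antigen Ki-67, and Top2a, the DNA topoisomerase of S phase to mitosis, in the same cell. At 200000 reads, a read of both was found in 10, 12 and 9 cells of the Day 1 cultures, 41, 37 and 33 of the Day 3 cultures and 20, 13, 48, 49 and 13 of the Day 7 cultures. A read of neither was found in 35, 65 and 25 cells on Day 1, 25, 21 and 28 on Day 3 and 11, 16, 7, 15 and 53 on Day 7. Cells with both made up 19.01% ± 4.79, 50.2% ± 5.26 and 47.2% ± 21.2 of a culture. Median depth was 676955 and 738957 reads on Day 1, 781432 and 859167 on Day 3, and 906325 and 861760 on Day 7, for cells with both and with neither in turn. Counts were summed per class and culture and tested with culture as a block, over 16367 genes. Cells with a read of 1 of the 2 genes were left out.

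Cdkn2c and Cdkn1b went with the classes in the same direction in every one of the 11 cultures, Cdkn2c higher and Cdkn1b lower in cells with both. That held in either direction for 5.28% of all genes. With the effect averaged over the 3 days, a comparison added after the data had been seen, 2 of the 6 members tested were called, these same 2, against 9.07% of all genes. Day by day no member was called on Day 1 or Day 3, against 1.53% and 1.46% of all genes. There 1868 and 1494 genes passed an unadjusted p under 0.05 in edgeR. DESeq2 called 2 and 1 members on those days, beside 1107 and 831 of 16367 genes. Cdkn2d was called by edgeR on Day 7, against 4.26% of all genes. The same direction in every culture of a day was seen for 34.4%, 37.9% and 14.2% of all genes on Days 1, 3 and 7.

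Windows before the RefSeq transcript starts of Cdkn2c, Cdkn2d and Cdkn1b are shown because these are the members that differed between the classes. Each is the 250 bases before a transcript start in RefSeq (GRCm38.p6), written 5′ to 3′ on the strand of the gene, at chr4:109666757-109667006 (minus strand) and chr4:109665373-109665622 (minus strand) for the 2 starts of Cdkn2c, chr9:21291210-21291459 (minus strand) for Cdkn2d and chr6:134920151-134920400 (plus strand) for Cdkn1b. Capitals mark every match to 3 motifs searched on both strands: the E2F words TTTCCCGC, TTTCGCGC, TTTGCCGC and TTTGGCGC, the cell cycle homology region core TTTGAA, and CCAAT.
Cdkn2c, upstream start: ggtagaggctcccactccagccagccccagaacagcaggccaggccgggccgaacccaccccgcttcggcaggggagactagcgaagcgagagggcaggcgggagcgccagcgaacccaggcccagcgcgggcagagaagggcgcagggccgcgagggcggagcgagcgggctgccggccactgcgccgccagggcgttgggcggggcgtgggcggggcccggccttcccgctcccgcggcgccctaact
Cdkn2c, downstream start: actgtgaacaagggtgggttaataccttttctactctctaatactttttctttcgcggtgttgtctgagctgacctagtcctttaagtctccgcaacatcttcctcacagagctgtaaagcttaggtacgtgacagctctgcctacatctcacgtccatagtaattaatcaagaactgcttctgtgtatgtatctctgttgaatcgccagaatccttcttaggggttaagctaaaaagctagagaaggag
Cdkn2d: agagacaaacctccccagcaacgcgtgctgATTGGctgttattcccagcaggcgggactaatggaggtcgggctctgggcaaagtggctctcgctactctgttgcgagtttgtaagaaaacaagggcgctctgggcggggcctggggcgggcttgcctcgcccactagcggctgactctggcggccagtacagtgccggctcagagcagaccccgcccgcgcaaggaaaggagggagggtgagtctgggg
Cdkn1b: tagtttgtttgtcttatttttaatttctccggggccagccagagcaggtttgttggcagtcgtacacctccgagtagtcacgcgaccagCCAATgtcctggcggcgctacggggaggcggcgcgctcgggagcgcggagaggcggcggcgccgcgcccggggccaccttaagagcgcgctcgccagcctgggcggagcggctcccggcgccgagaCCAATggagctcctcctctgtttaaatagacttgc
Cdkn1b held CCAAT in 2 places, the nearer one 35 bases before the start, Cdkn2d held the reverse complement ATTGG at 220 bases, and both Cdkn2c windows held no match. CCAAT was found in 33.8% of all 32851 windows of this length, TTTGAA in 15.99% and an E2F word in 1.86%. The annotation used here places Cdkn1b at chr6:134920401-134925513 (plus strand, 2 exonic blocks), Cdkn2c at chr4:109660876-109667189 (minus strand, 3 exonic blocks) and Cdkn2d at chr9:21288410-21291407 (minus strand, 3 exonic blocks) in GRCm38. By that annotation both Cdkn2c windows and most of the Cdkn2d window lie inside the gene, and the bases before the starts it gives were not searched beyond these windows.

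Cdkn2c reads were largely those of cells with both proliferation genes. In such cells its CPM was 3.59, 4.47 and 3.94 in the Day 1 cultures, 6.95, 16.8 and 16.3 on Day 3 and 17.99, 44.2, 31.5, 30.2 and 24.6 on Day 7. In cells with neither it was 0, 0.0618 and 0 on Day 1, 0, 0 and 1.86 on Day 3 and 6.35, 13.9, 0, 0 and 1.84 on Day 7. No culture overlapped between the classes on Days 1, 3 or 7. A Cdkn2c read was found in 5 cells with both and 1 with neither on Day 1 (16.1% and 0.8% of the class), in 34 and 2 on Day 3 (30.6% and 2.70%) and in 85 and 9 on Day 7 (59.4% and 8.82%). Exact 95% binomial intervals did not overlap on any day, at 5.45% to 33.7% against 0.0203% to 4.38% on Day 1, 22.2% to 40.1% against 0.329% to 9.42% on Day 3, and 50.9% to 67.6% against 4.11% to 16.1% on Day 7. These intervals cover counting error only and treat cells of a culture as independent.

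Averaged over days the log2 difference for Cdkn2c was 6.03 (SE 1.12, edgeR adjusted p = 0.00367, higher in 11 of 11 cultures), and it was called on leaving out each culture in turn. A fitted value this large rests on classes near 0 and on the prior count. The Cdkn2c share of the reads of cells with both, pooled over a day, was 120 times that of cells with neither on Day 1 (counting interval 39.7 to 593.9, on 3 reads), 18.5 times on Day 3 (13.5 to 26.1) and 8.31 times on Day 7 (7.42 to 9.33). By day the edgeR adjusted p was 0.127, 0.201 and 0.163, not called. In file 1 alone the averaged difference was 7.95 (edgeR adjusted p = 0.393) and in file 2 alone 5.35 (edgeR adjusted p = 0.0692), not called.

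The rise of Cdkn2c over days was also seen inside the class with both genes. Among those cells alone it was 2.88 (SE 0.48, edgeR adjusted p = 0.00637) for Day 7 against Day 1, called, and all Day 3 and Day 7 cultures were above all Day 1 cultures. Cells with both took 17.3%, 48.9% and 49.2% of the reads of Days 1, 3 and 7, and 65.9%, 86.98% and 86.2% of the Cdkn2c reads. Among cells with neither the rise was 7.22 (SE 2.95, edgeR adjusted p = 0.311), not called, while 59 of 15007 genes were. The mean went from 0.0206 CPM on Day 1, on 3 reads, to 4.42 ± 5.91 on Day 7 (SD, n = 5 cultures). The changes in the classes were not shown to differ (-3.01, SE 2.44, edgeR adjusted p = 0.855). The Day 1 value of cells with both rests on 5 cells, 1 of them in culture 1 and 2 in each of cultures 2 and 3.

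**Figure D3:**
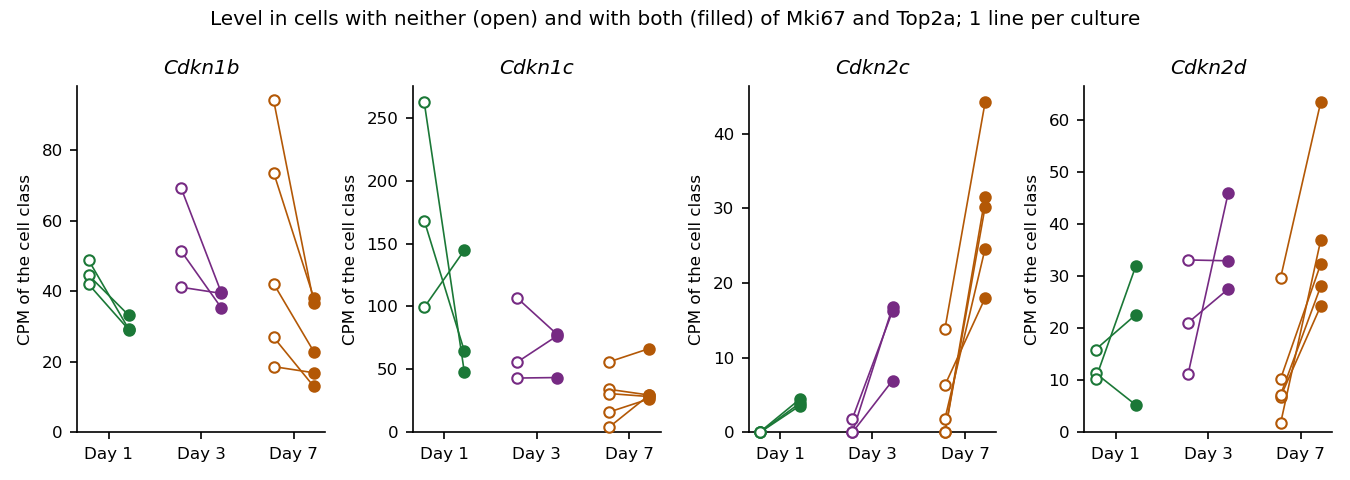
Level of Cdkn1b, Cdkn1c, Cdkn2c and Cdkn2d (vertical axis, CPM, linear) in cells with neither (open circles) and with both (filled circles) of Mki67 and Top2a, with a line for each culture, on Days 1, 3 and 7. All 11 lines go down for Cdkn1b and up for Cdkn2c, and all 5 Day 7 lines go up for Cdkn2d.

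Cdkn2d was higher in cells with both genes on Day 7. Its CPM was 24.3, 32.4, 63.5, 37.0 and 28.1 in Day 7 cells with both, against 6.90, 10.3, 29.8, 1.81 and 7.27 in cells with neither of the same cultures. Each culture was higher in cells with both, and the log2 difference was 2.10 (SE 0.54, edgeR adjusted p = 0.0448), called. In cells with neither, 1 cell held 67.7%, 51.9%, 73.6%, 95.5% and 28.3% of the Cdkn2d reads of Day 7 cultures 1 to 5. In cells with both the top cell held from 6.53% to 32.3%. On Day 1 the values were 5.30, 22.6 and 31.9 against 11.4, 15.9 and 10.3, and on Day 3 they were 27.6, 33.01 and 46.1 against 21.1, 33.2 and 11.2. Day 1 culture 1 and Day 3 culture 2 were the 2 cultures that were not higher. The share of cells with a Cdkn2d read was 67.8% (97 cells) against 16.7% (17 cells) on Day 7, 52.3% against 39.2% on Day 3 and 38.7% against 33.6% on Day 1.

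The Day 7 difference of Cdkn2d was close to the threshold. It was lost on leaving out any Day 7 culture (edgeR adjusted p from 0.0646 to 0.111), Day 1 culture 2, Day 3 culture 1 or Day 3 culture 2 (0.0630 to 0.0661), and without the culture block (0.102), while the log2 difference stayed between 1.64 and 2.39. In file 1 alone it was 2.21 (edgeR adjusted p = 0.354) and in file 2 alone 1.95 (edgeR adjusted p = 0.554). The difference was not shown to change between days, at 1.31 (SE 0.85) for Day 7 against Day 3 with an edgeR adjusted p of 1. In that test edgeR called 0 members, against 0% of all genes, with 2.85% of genes at an unadjusted p under 0.05 and 37 genes called by DESeq2.

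Cdkn1b was lower in cells with both genes, by less. Its CPM was 33.2, 29.1 and 29.3 against 44.5, 42 and 48.8 on Day 1, and 39.7, 39.4 and 35.3 against 69.3, 41.1 and 51.4 on Day 3. On Day 7 it was 38.2, 13.04, 36.7, 22.9 and 16.9 against 73.6, 26.96, 94.1, 42.1 and 18.6. All 11 cultures were lower in cells with both, with the narrowest gaps in Day 3 culture 2 and Day 7 culture 5. The averaged log2 difference was -0.64 (SE 0.16, edgeR adjusted p = 0.0223), called, and on Day 7 alone -0.88 (SE 0.23, edgeR adjusted p = 0.0503), just above the threshold and not called. The averaged call did not hold when culture 2 or 3 of Day 1, or culture 1 or 3 of Day 3, was left out (edgeR adjusted p from 0.0627 to 0.104), nor in file 1 alone (-0.71, edgeR adjusted p = 0.677) or file 2 alone (-0.34, edgeR adjusted p = 0.649). The Day 7 difference was called without Day 7 culture 5 (-1.06, edgeR adjusted p = 0.0302). Pooled over cultures, the share of cells with a read was 70.97% against 68% on Day 1, 72.1% against 75.7% on Day 3 and 67.8% against 60.8% on Day 7, with overlapping intervals. Of the Day 7 cells with neither, 53 are from culture 5, and as means over cultures the Day 7 shares were 66.9% ± 11.04 with both and 77.5% ± 25.4 with neither (SD, n = 5). The share was higher in cells with both in 1 of 5 Day 7 cultures, 0 of 3 on Day 3 and 2 of 3 on Day 1.

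Cdkn1c had fitted class differences of opposite sign on Days 1 and 7, neither called, and no change between days was shown. On Day 1 it stood at 144.7, 64.7 and 47.97 CPM in cells with both and 99.3, 168.3 and 262.2 in cells with neither, lower in 2 of 3 cultures (log2 difference -1.12, SE 0.58, edgeR adjusted p = 0.518). On Day 7 it stood at 29.6, 28.5, 29.8, 66.6 and 26.7 against 34.2, 30.85, 4.29, 56.1 and 16.2, higher in 3 of 5 cultures (0.58, SE 0.44, edgeR adjusted p = 0.596). The change between those differences was 1.70 (SE 0.73, edgeR adjusted p = 0.714), not called, against 0.00611% of all genes. On Day 1, 1 cell held 48.9% of the Cdkn1c reads of cells with both in culture 1. Another held 42.5% of those of cells with neither in culture 3. The 4.29 CPM of Day 7 culture 3 rests on 18 reads. In terms of cells, the Day 7 share with a read was 79.7% (interval 72.2% to 85.98%) in cells with both and 50.98% (40.9% to 61.01%) in cells with neither. It was higher in cells with both in 5 of 5 cultures, a count that was not computed for all genes. The part of the number of genes detected per cell in such shares was not tested. The Cdkn1c share was 74.2% against 82.4% on Day 1 and 78.4% against 71.6% on Day 3.

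Cdkn1a and Cdkn2b showed no called difference between the classes. Cdkn1a was lower in cells with both in 7 of 11 cultures (averaged log2 difference -0.45, SE 0.31, edgeR adjusted p = 0.486). On Day 1 a Cdkn1a read was in 90.3% (28 of 31) of cells with both and 68% (85 cells) of those with neither. This share was higher in 3 of 3 cultures, a count not computed for all genes. The Cdkn1a share of the pooled reads of cells with both was 0.482 times that of cells with neither. In culture 2, 1 cell held 44.9% of the Cdkn1a reads of cells with neither. Culture 3 went the other way in CPM (262.9 with both, 96.3 with neither). Cdkn2b was lower in cells with both in 7 of 11 cultures and higher in 3 (-2.40, SE 1.60, edgeR adjusted p = 0.477). On Day 1 it had a read in 1 of 31 cells with both against 30 cells (24%) with neither. Its share of the pooled reads was 0.0362 times as high, on 17 reads that all came from that 1 cell, so no interval is given.

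**Figure D4:**
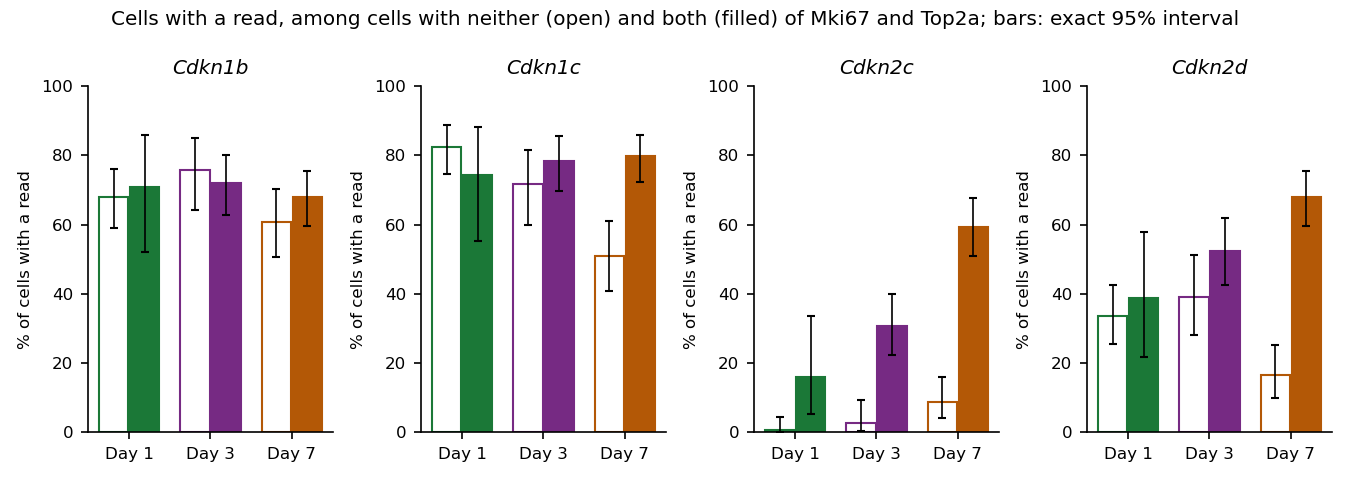
Share of cells with a read of Cdkn1b, Cdkn1c, Cdkn2c and Cdkn2d (vertical axis, %) among cells with neither (open bars) and with both (filled bars) of Mki67 and Top2a on Days 1, 3 and 7, with exact 95% binomial intervals that cover counting error only. On Day 7 the filled bars of Cdkn2c, Cdkn2d and Cdkn1c stand at 59.4%, 67.8% and 79.7% against 8.82%, 16.7% and 50.98%, and those of Cdkn1b overlap in their intervals. Cells are pooled over the cultures of a day.

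On Day 7 a cell with both proliferation genes had reads of 3.35, 3.62, 3.90, 3.53 and 3.69 inhibitors on average in cultures 1 to 5, and a cell with neither 2.91, 2.81, 2.86, 2.27 and 1.87. All 5 cultures were higher in cells with both, with the widest gap in culture 5. Genes detected per cell were not compared between the classes, so their part in this difference was not tested. On Day 1 the means were 2.80, 2.75 and 3.33 against 2.66, 2.95 and 2.44, higher in 2 of 3 cultures. Among Day 7 cells, 65% of those with a Cdkn2c read also had a Cdkn2d read, against 32.8% of those without. The shares were 33.3% against 32.5% on Day 1, with 3 cells that had both inhibitors, and 56.4% against 42.1% on Day 3. These cells were pooled over cultures and classes. Both inhibitors were read more often in cells with both proliferation genes, and the part of class and culture was not tested.

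Hair cell transcripts, taken as reads of 2 or more genes out of Pvalb, Myo7a, Gfi1, Pou4f3 and Atoh1, were found in few cells: 3 on Day 1, 9 on Day 3 and 1 on Day 7. Of these 13 cells 12 had a Cdkn2d read (92.3%, exact 95% interval 63.97% to 99.8%), against 40.2% of the other cells. The interval covers counting error only and treats cells pooled over days and cultures as independent. On Day 3 alone it was 8 of 9 against 91 of the others (42.7%), with a mean of 133.9 and 20.8 Cdkn2d reads per 1000000. Cdkn1a was read in all 13 cells with hair cell transcripts (interval 75.3% to 100%) against 82.3% of the others, a share within that interval. In 1 of the 13, in Day 3 culture 2, it held 1184 of the 200000 reads. Cdkn1b was read in 9 of 13 (69.2%) against 68.3% of the others. Leaving these cells out kept the Day 7 calls of Cdkn1c, Cdkn2b and Cdkn2c.

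The partners and inputs of the inhibitors were read from 7 lists. For Day 7 against Day 1, 5 of 12 cyclins and kinases rose and none fell, beside 7.11% of all genes called, and with a median log2 change of 0.74 beside 0.00 over all genes. The mitotic cyclin genes led, with Ccnb2 at 4.04 (SE 0.68, edgeR adjusted p = 0.00585), Ccnb1 at 3.52 (SE 0.71, edgeR adjusted p = 0.0132) and Ccna2 at 2.31 (SE 0.49, edgeR adjusted p = 0.0164). The INK4 target Cdk4 rose by 0.63 (SE 0.15, edgeR adjusted p = 0.0290), from 416.9 ± 72.1 CPM on Day 1 (SD, n = 3 cultures) to 643.5 ± 33.3 on Day 7 (n = 5 cultures), while Cdk6, the other INK4 target, stood at 58.8 ± 8.38 and 64.9 ± 11.1. Of 11 pocket protein and E2F genes, which act next in the pathway, none was called, with a median of 0.51. The smallest p-values were those of the pocket protein gene Rbl1 (1.53, edgeR adjusted p = 0.0868), E2f7 (1.62, edgeR adjusted p = 0.0989) and E2f2 (1.25, edgeR adjusted p = 0.123).

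Genes that act on p27 and p21 after translation rose in part. Of 10, 3 rose and none fell for Day 7 against Day 1 (median 0.71, beside 7.11% of all genes called): Skp2, the F-box protein that targets p27 for degradation, by 1.69 (SE 0.32, edgeR adjusted p = 0.00937), its cofactor Cks1b by 1.16 (SE 0.30, edgeR adjusted p = 0.0338), and the importin Kpna2 by 1.46 (SE 0.38, edgeR adjusted p = 0.0371). In cells with both genes, averaged over days, 6 of the 10 were higher and Skp1a lower, beside 9.07% of all genes called, with Pcna at 2.12 (SE 0.10, edgeR adjusted p = 1.4e-07) and Skp2 at 2.37 (SE 0.47, edgeR adjusted p = 0.00587). In the same comparison 9 of 12 cyclins and kinases and 6 of 11 pocket protein and E2F genes were higher and none was lower. Reads of Mki67 and Top2a chose the classes, so genes of the same cell cycle phases are higher by that choice. Their values describe the classes and are no separate result. Of 19 genes of p53 and its targets, Trp53 (0.50) and Gdf15 (3.09) were higher and Mdm2 (-0.66) and Btg2 (-1.23) lower in that comparison.

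Of 19 genes of p53 and its targets, the pathway that drives Cdkn1a, 1 rose from Day 1 to Day 7, the antiproliferative gene Btg2 by 1.75 (SE 0.44, edgeR adjusted p = 0.0326), and none fell (median -0.02), a share close to the 7.11% of all genes called. Trp53 itself stood at 0.37 (edgeR adjusted p = 0.206) and Gadd45a at -1.54 (edgeR adjusted p = 0.137). For Day 7 against Day 3 Phlda3, another target, fell by 1.28 on the log2 scale (SE 0.27, edgeR adjusted p = 0.0485), with a list median of -0.76. Of 13 Polycomb genes, which hold the Cdkn2a locus silent, none was called for Day 7 against Day 1 (median 0.70). The smallest p-values were those of Rnf2 (0.70, edgeR adjusted p = 0.0943), Phc1 (1.04, edgeR adjusted p = 0.118) and Cbx8 (1.47, edgeR adjusted p = 0.132). In cells with both genes Ezh2, Eed and Cbx2 were higher in the averaged comparison (1.34, 0.74 and 1.36). Of 14 imprinted genes tested, of 16 listed, 3 fell with Cdkn1c and none rose, beside 7.11% of all genes called: Meg3 by 2.40, Igf2 by 3.08 and Kcnq1ot1, the noncoding RNA of the Cdkn1c domain, by 1.23 on the log2 scale (edgeR adjusted p = 0.00395, 0.0118 and 0.0180), with a median of -0.15. Of 14 genes of the FoxO and TGFβ inputs, 1 rose and 1 fell, beside 7.11% of all genes called, with a median of 0.05. The gene that rose was Foxm1, a factor for mitotic genes, by 2.05 (SE 0.54, edgeR adjusted p = 0.0393). Foxo3 stood at -1.12 (edgeR adjusted p = 0.0571). Cdk4, Cdk6, Phlda3 and the genes named from the class comparison were chosen for mention after their values had been seen. No gene of the lists was called for Day 3 against Day 1, and Phlda3 was the only one for Day 7 against Day 3.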

How the data were processed

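Single-cell expression was measured with SmartSeq2 in 768 cells. The authors deposited expected counts per gene (RSEM 1.3.0 and STAR 2.5.3a, mm10/GRCm38, per the submitters' processing notes) in 2 tables of 384 cells. The annotation release and how multi-mapped reads were shared are not given in the sources used here. Of values above 0, 10.6% were not whole, and all were rounded. Rows other than genes (92 ERCC spike-ins, 4 transgenes) held 0.00451% of reads and were left out. Cells had to reach 50000 reads and 1500 genes with at most 20% mitochondrial reads, which removed 57 and left 182, 228 and 301 on Days 1, 3 and 7. Of these, 175, 222 and 298 were thinned to 200000 reads; a read of both Mki67 and Top2a was in 31, 111 and 143 of them and of neither in 125, 74 and 102. Doublets were not called, since cells were picked by hand. Summed cultures went into 1 quasi-likelihood fit over all 11 (edgeR 4.0.16, R 4.3.3, TMM scaling, filterByExpr), and classes of cells likewise with culture as a block. SE is the fold change divided by the root of F. In simulated counts, the Day 7 against Day 1 fit recovered 52% of changes of log2 1.5 and 100% of log2 3 (17781 genes). Alternatives used DESeq2 1.42.0 and limma 3.58.1 (log2 of CPM + 1). Intervals are exact 95% Clopper-Pearson, and a count of 0 allows 3 counts. No molecular identifiers were used, so that PCR copies count as reads and intervals and limits cover counting error only. Coordinates come from GENCODE M21, for genes whose identifier version matched that in the deposited tables. Lengths are merged exons of that release, in which the identifier versions of Cdkn1a and Cdkn2b differ from those deposited. The named genes were all members, Mki67, Top2a, up to 3 genes of each list by adjusted p for Day 7 against Day 1, and the 3 genes most like each member. A gene that this rule names is not reported here. Members and lists were chosen with earlier results of these data known.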

Additional observations from a re-analysis of the deposited data

Results flagged for a closer look

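In Day 7, with 5 cultures, 28 sets of member values were compared for a culture far from the other 4, by Dixon's criterion, which flags about 1 in 20 sets by chance, and 5 were flagged. Cdkn1a stood at 534.03 CPM in culture 3 among cells with neither Mki67 nor Top2a reads, against 97.2 to 142.5 in the others. Those were 7 cells, and 1 of them held 80.3% of the reads. Cdkn1c stood at 66.6 CPM in culture 4 among cells with both, against 26.7 to 29.8 in the others, and 44 of those 49 cells had a read. The other 3 flags were the single Cdkn2a cell of culture 3, which gave 0.181 CPM, 1.45% of cells with a read, and 0.248 CPM among cells with both, where the other 4 cultures were at 0.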

How the results depend on the processing

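Of the values of single members recomputed under the alternatives, 590 kept their direction and side of the threshold, 36 lost the call, 20 gained one and 5 changed sign. Those 5 were not called either way: Cdkn1b (0.21) and Cdkn2d (-0.14) for Day 7 against Day 1 in cells with neither Mki67 nor Top2a, Cdkn2c for Day 7 against Day 3 in file 2 alone (-0.42), the Day 1 class difference of Cdkn1c in file 1 alone (0.53) and the averaged class difference of Cdkn1a in file 2 alone (0.061). The causes were not tested, beyond the smaller number of cells or cultures in these subsets.

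Of the 3 members called for Day 7 against Day 1, 0 were called in cells with neither gene (Cdkn2c 7.22, Cdkn1c -2.60, Cdkn2b -3.86) or in file 1 alone, and 1 in cells with both or in file 2 alone. For Day 3 against Day 1 (0 called) DESeq2 called 1 and the replicate block 1. For Day 7 against Day 3 (0 called) DESeq2 called 2, and thinned cells and limma 1 each. In the class comparisons DESeq2 called 2 for Day 1, 1 for Day 3 and 3 for Day 7, while thinned cells gave 1 for Day 1 and 2 for Day 7. Day 7 (1 called) also gave 2 with RLE size factors or classes cut at 5 reads, and 0 without the culture block or in either file alone. Leaving out 1 culture gave 0 to 1 there. For the averaged difference (2 called) no culture block gave 1, beside 1271 of 16367 genes. There leaving out 1 culture gave 1 to 3, beside 956 of 17034 to 1497 of 16383 genes. Mean shares of cells with a read over the 11 cultures moved beyond the spread within days when 5 reads were asked for, to 70.4% for Cdkn1a (81.8% at 1 read), 49.3% for Cdkn1b (68.8%) and 55.9% for Cdkn1c (72.1%).

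Over all genes, the share called for Day 7 against Day 1 ranged from 0.0794% (15 genes, file 1 alone) to 13.4% (2317, DESeq2) against 7.11% (1241). For Day 7 against Day 3 it ranged from 0% to 3.74% against 0.968%, and for Day 3 against Day 1 from 0% to 1.503% against 0.0115%. In the class comparisons it ranged from 0% to 6.76% against 1.53% for Day 1, 0% to 5.08% against 1.46% for Day 3, 0.418% to 12.2% against 4.26% for Day 7 and 0.271% to 16.5% against 9.07% averaged, the lowest in file 1 alone and the highest with DESeq2. Cultures with the same replicate number were not shown to be paired: correlations of their deviations from the day means lay between -0.01 and 0.06, and not every culture correlated best with its own number. With the replicate block Cdkn2c was called for Day 3 against Day 1 (2.78, edgeR adjusted p = 0.0487), and no other call of a member changed.

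File 1 alone has 1 culture on each of Days 1 and 3, and file 2 alone 1 on Day 7, so that a lone culture is assumed to vary like the others. Reads limit the low members: Cdkn2b on Day 7 rests on at most 49 reads in 4 of 5 cultures, Cdkn2c on Day 1 on 25 to 77 and Cdkn2a on 16 in all.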
